A study of Mus musculus with 36 samples.

Results

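The 10 genes described here encode temperature-responsive RNA-binding proteins (Cirbp and Rbm3), the CDC-like kinases (Clk1, Clk2, Clk3 and Clk4) and 4 of the SR proteins that such kinases act on (Srsf2, Srsf3, Srsf5 and Srsf7). They were chosen by symbol from the 54842 genes of a count table, and each of the 10 symbols matched 1 gene. The table covers 36 RNA-seq libraries of mouse embryonic stem cells in serum-free medium with a MEK inhibitor, a GSK3β inhibitor and leukaemia inhibitory factor. There were 12 groups of 3 libraries, made of LiTEC or wild-type (WT) cells, lit or dark, with RNA taken 0, 1 or 4 h later. LiTEC cells were transfected with a light-induced targeting construct, and whether they were 1 clone is not given in the sources used here. All cultures, WT included, had received doxycycline at 2 µg/ml for 2 days. Lit cultures stood on a blue LED panel for 30 min at an average of 3.24 mW/cm2 by the treatment protocol or 3.42 mW/cm2 by the design text, and dark cultures had no light. Each time had its own dark group, so a light effect compares libraries of the same time.

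CIRBP and RBM3 are small RNA-binding proteins with a single RNA recognition motif, and their mRNAs are known to rise when mammalian cells are cooled mildly and to fall when they are warmed. CDC-like kinases sit in nuclear speckles and phosphorylate the arginine- and serine-rich tails of SR proteins, which choose splice sites. The activity of CLK1 and CLK4 is known to depend on temperature within the range of body temperature, and part of the Clk1 and Clk4 transcripts are kept in the nucleus with introns that are spliced out after heat stress. Many Srsf genes limit their own mRNA through exons that carry a stop codon. Counts per gene do not separate such transcript forms, so each level below is a sum over them. The labels give no temperature for the lit wells.

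Of the 10 genes, 8 had at least 1 promoter entry in RefSeq (GRCm38.p6), Cirbp with 2 start sites; Rbm3 and Clk1 had none. The 250 bases before the start are shown for Cirbp and for 3 genes that, like Cirbp, changed with light over both genotypes, in lower case and on the strand of the gene. Capitals mark a match to TCCCCGCC, an element described for the cold response of Cirbp, or to GAANNTTC, the core of a heat shock element, on either strand.
Cirbp, chr10:80167589-80167838, plus strand: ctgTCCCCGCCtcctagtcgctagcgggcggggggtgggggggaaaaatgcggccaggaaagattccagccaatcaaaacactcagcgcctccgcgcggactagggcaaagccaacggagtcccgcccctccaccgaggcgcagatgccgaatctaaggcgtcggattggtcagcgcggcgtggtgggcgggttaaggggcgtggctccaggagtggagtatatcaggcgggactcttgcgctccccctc
Clk4, chr11:51262864-51263113, plus strand: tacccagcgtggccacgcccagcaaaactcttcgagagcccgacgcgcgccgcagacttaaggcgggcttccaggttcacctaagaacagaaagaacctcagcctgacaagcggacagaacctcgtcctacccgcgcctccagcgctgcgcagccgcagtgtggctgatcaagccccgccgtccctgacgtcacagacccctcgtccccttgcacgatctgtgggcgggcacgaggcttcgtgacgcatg
Clk3, chr9:57765115-57765364, minus strand: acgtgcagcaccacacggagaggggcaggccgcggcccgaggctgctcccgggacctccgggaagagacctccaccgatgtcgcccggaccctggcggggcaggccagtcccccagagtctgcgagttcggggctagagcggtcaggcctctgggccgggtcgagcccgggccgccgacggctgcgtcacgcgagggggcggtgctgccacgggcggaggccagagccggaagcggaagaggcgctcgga
Srsf5, chr12:80945249-80945498, plus strand: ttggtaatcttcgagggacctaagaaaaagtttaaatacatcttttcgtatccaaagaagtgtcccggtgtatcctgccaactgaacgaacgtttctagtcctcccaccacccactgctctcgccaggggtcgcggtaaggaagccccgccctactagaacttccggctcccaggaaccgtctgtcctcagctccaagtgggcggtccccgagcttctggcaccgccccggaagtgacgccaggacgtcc
The Cirbp window held TCCCCGCC from base −247 to base −240, counted back from the start site. Among the other entries of these genes, Srsf7 held it as well, from −44 to −37, and the other 7 windows, the second of Cirbp included, did not. The element was present in 4.64% of the 32851 promoter windows of this length. GAANNTTC was in none of the 9 windows and in 6.69% of all. A match describes the letters of the window and nothing about binding.

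Library totals ran from 11132970 to 21842256 counts. The least covered of the 10 genes was Cirbp, with 164 to 659 counts a library, and the most covered was Srsf2, with 5124 to 10488. Of 8 embryonic stem cell markers, all had a median of at least 1 CPM (counts scaled to library size by TMM), with a sum of 2736 to 4187 CPM. Of 7 fibroblast and feeder markers 2 had such a median (Col1a1 and Thy1), the sum was 2.06 to 9.58 CPM, and Lum and Dcn were at 0 in 34 and 33 libraries. Of 5 primitive endoderm markers 3 had such a median (Sparc, Gata4 and Pdgfra), and the sum was 127 to 206 CPM, nearly all of it Sparc. Gata4 had at most 5.86, Pdgfra at most 2.17, Gata6 at most 1.22 and Sox17 at most 0.58 CPM. Replicate 3 of dark WT cells at 4 h stood apart, with 26.1% of its counts on the ribosomal RNA locus Gm26917 against a median of 9.87% over all libraries. Its levels were the highest of all 36 libraries for Srsf2 (689.8 CPM), Srsf3 (656), Srsf5 (398) and Srsf7 (248), and within its group for Cirbp (40.1). Replicate 1 of lit LiTEC cells at 0 h had the second largest share, 16.3%.

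Per kilobase of exon in the annotated transcripts, the mean level over all libraries was highest for Srsf2, at 169 CPM per kb, then Srsf7 (90.6), Srsf5 (81.5) and Srsf3 (60.4). Rbm3 followed at 37.6 CPM per kb, above Cirbp at 10.3. Among the kinases the order was Clk1 (17.3), Clk2 (15.2), Clk4 (8.64) and Clk3 (5.47). The exon lengths include retained introns of some annotated transcripts and, for Srsf7, the single transcript of the series' name map, so neighbours in this order cannot be ranked firmly. All values below are CPM without length, for comparison of 1 gene between groups.

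Straight after light, Cirbp was lower and Clk4 and Clk3 were higher over both genotypes. These were the 3 called genes of the 10 in the mean light effect at 0 h, where 5.37% of the 18193 tested genes were called, 2.76% higher and 2.61% lower (edgeR quasi-likelihood test, Benjamini-Hochberg adjusted p below 0.05). The median log2 fold change of the 10 genes was −0.02, against 0.00 over all tested genes. The heat shock gene Dnajb1, an Hsp40 cochaperone and HSF1 target, rose in the same libraries by 0.68 ± 0.06 (log2 fold change ± SE). So did Hspa1a and Hspa1b, the inducible Hsp70 genes, by 4.37 ± 0.38 and 2.78 ± 0.29, and Hsph1, an Hsp110 gene, by 0.63 ± 0.09. The part of a heat response in the changes below was not tested. In bulk RNA, fewer cells of a kind and less RNA per cell cannot be told apart.

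Cirbp (chromosome 10, 80165985 to 80172786, plus strand, GRCm38) had 22.9, 14.8 and 14.6 CPM in the replicates 1 to 3 of lit LiTEC cells at 0 h, against 24.9, 25.3 and 20.6 CPM in dark LiTEC cells. In WT it had 17.9, 14.6 and 16.0 CPM in lit cells and 21.5, 22.8 and 20.4 CPM in dark cells. The lit WT libraries all lay below the dark ones, whereas lit LiTEC replicate 1 lay within the range of the dark LiTEC libraries. The mean light effect was −0.43 ± 0.09 on the log2 scale (adjusted p = 0.00134). It was called under each of the 9 other processings (adjusted p 3.09e-06 to 0.0363) and without each of the 12 libraries in turn (0.000249 to 0.00785). The effect was −0.19 in batch 1 and −0.55 in batch 2.

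Within a genotype the Cirbp change was at the edge of the threshold. It was −0.44 ± 0.12 in LiTEC (adjusted p = 0.0793). There it passed under 3 of the 9 alternatives, the replicate number as a block included (adjusted p = 0.0483, and 0.011 to 0.434 over the 9). Without lit replicate 1 the LiTEC change was −0.63 (adjusted p = 0.0391). In WT it was −0.42 ± 0.12 (adjusted p = 0.0499; 0.00853 to 0.283 over the alternatives). Leaving out any lit library, or dark replicate 2 or 3, ended the WT call (adjusted p 0.0667 to 0.235). So did batch 2 alone, fitting just the compared groups, a mean of at least 5 CPM, no batch term, RLE size factors and leaving out the ribosomal RNA loci. The difference between the genotypes was −0.02 ± 0.17 with a 95% interval of −0.38 to 0.34. Without lit LiTEC replicate 1 that difference was −0.20 (adjusted p = 1). The interval leaves room for a difference about as large as the change itself.

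At 1 h, Cirbp averaged 29.7 ± 2.72 CPM in lit and 34.3 ± 5.21 in dark LiTEC cells (mean ± SD, n = 3 each). The WT means at that time were 26.7 ± 5.51 CPM lit and 29.6 ± 2.73 dark. At 4 h they were 28.1 ± 2.69 lit and 32.7 ± 4.82 dark in LiTEC, and 27.4 ± 3.66 lit and 33.7 ± 5.74 dark in WT. The ranges of lit and dark libraries overlapped in all 4 of these pairs. The mean light effect was −0.18 ± 0.08 at 1 h and −0.26 ± 0.08 at 4 h, neither called (adjusted p = 0.382 and 0.168). A change of the effect since 0 h was not called either (0.25 ± 0.12 for 1 h, adjusted p = 0.487; 0.17 ± 0.12 for 4 h, adjusted p = 0.587), so a fading of the Cirbp response was not shown. Without dark WT replicate 3 at 4 h, which had 40.1 CPM, the 4 h effect was −0.17 in the mean (adjusted p = 0.435), and in WT −0.11 in place of −0.31 ± 0.11. Without an expression filter the 4 h effect passed (adjusted p = 0.042; 0.042 to 0.615 over the alternatives).

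Rbm3 (chromosome X, 8138975 to 8145880, minus strand), the close relative of Cirbp, was not called with light. It had 149, 183 and 177 CPM in lit and 177, 185 and 184 CPM in dark LiTEC cells at 0 h, and 155, 160.0 and 148 CPM in lit and 185, 170.0 and 168 CPM in dark WT cells. The lit WT libraries lay below the dark WT libraries, and the LiTEC ranges overlapped. The mean light effect was −0.14 ± 0.04 (adjusted p = 0.0607). It passed under 4 of the 9 alternatives, the replicate block included (adjusted p = 0.0331, and 0.0331 to 0.516 over the alternatives). It was −0.25 in batch 1 and −0.08 in batch 2, and −0.11 without lit LiTEC replicate 1 (adjusted p = 0.179), the lowest of the LiTEC libraries. It also passed without lit LiTEC replicate 2 or 3 or dark WT replicate 2 or 3 (adjusted p 0.0204 to 0.0427). At 1 h Rbm3 ran from 166 to 187 CPM in lit and 178 to 193 CPM in dark cells, with the lit WT libraries again below the dark ones, and at 4 h from 164 to 197 CPM in lit and 152 to 196 CPM in dark cells. The mean effect at 1 and 4 h was −0.09 ± 0.04 and −0.00 ± 0.04, not called. Rbm3os, on the opposite strand, shares 94 exonic bases with Rbm3 and had at most 29 counts in any library.

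**Figure D1:**
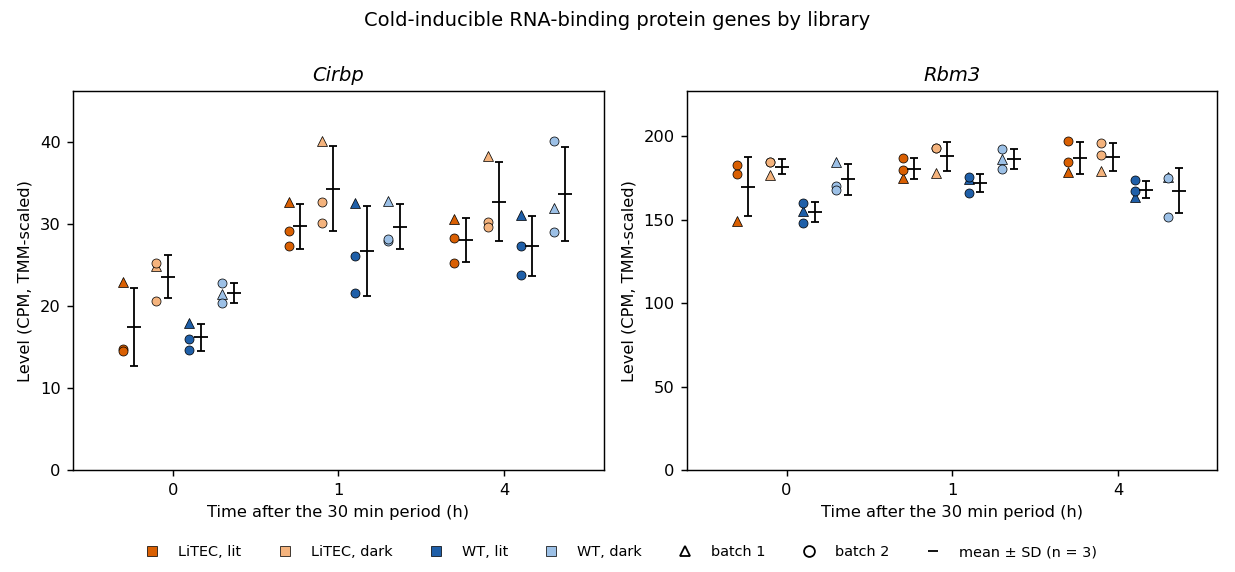
Levels of Cirbp and Rbm3 in CPM (y axis, from 0) at 0, 1 and 4 h (x axis) in each library of lit and dark LiTEC and WT cells; triangles are batch 1, circles batch 2, and bars the mean ± SD of 3 libraries. The group means of Cirbp are lowest in lit cells at 0 h (libraries at 14.6 to 22.9 CPM, overlapping with dark ones in LiTEC), and the means at 1 and 4 h lie above those at 0 h in lit and dark cells alike; Rbm3 runs from 148 to 197 CPM.

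Of the 4 kinase genes, Clk4 (chromosome 11, 51261730 to 51281766, plus strand) had the largest light effect at 0 h. It had 59.4, 62.6 and 64.3 CPM in lit LiTEC cells at 0 h, against 40.3, 47.9 and 43.3 CPM in dark LiTEC cells. In WT it had 53.3, 61.3 and 53.3 CPM in lit cells and 39.0, 44.7 and 35.2 CPM in dark cells. All lit libraries lay above all dark libraries of their genotype at this time. The rise was 0.50 ± 0.08 in LiTEC (adjusted p = 0.000438) and 0.49 ± 0.08 in WT (adjusted p = 8.55e-05). These were 1 of 10 genes called in LiTEC, where 0.934% of all genes were, and 1 of 4 called in WT, where 2.86% were. The mean effect, 0.50 ± 0.05 (adjusted p = 9.89e-08), was called under all 9 alternatives (5.2e-16 to 0.00219) and without each of the 12 libraries (5.81e-08 to 1.49e-06). It was 0.50 in batch 1 and 0.50 in batch 2. The difference between genotypes was 0.01 ± 0.11 (95% interval −0.21 to 0.23). In LiTEC the call was lost in batch 2 alone (adjusted p = 0.167; 7.61e-07 to 0.167 over the alternatives).

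Clk4 was still higher 1 h after light. It had 50.4, 53.6 and 60.3 CPM in lit and 43.4, 47.5 and 49.2 CPM in dark LiTEC cells, and 52.0, 50.6 and 55.9 CPM in lit and 41.3, 38.3 and 45.8 CPM in dark WT cells. Lit and dark ranges did not overlap in either genotype. The mean effect at 1 h was 0.28 ± 0.05 (adjusted p = 0.00205), lost in batch 2 alone (adjusted p = 0.214; 7.71e-05 to 0.214 over the alternatives). Within a genotype the effect was 0.34 ± 0.08 in WT (adjusted p = 0.0323) and 0.23 ± 0.07 in LiTEC (adjusted p = 0.375). Leaving out lit replicate 1 or 3, or dark replicate 1 or 2, ended the WT call (adjusted p 0.0833 to 0.357), as did batch 2 alone, no batch term, no expression filter and a fit of the compared groups only (0.00681 to 0.735 over all 9). At 4 h Clk4 averaged 55.9 ± 3.36 CPM in lit and 49.2 ± 2.75 CPM in dark LiTEC cells, and 50.3 ± 1.5 CPM in lit and 48.0 ± 2.85 CPM in dark WT cells; the ranges overlapped in WT and not in LiTEC, and the mean effect of 0.13 ± 0.05 was not called (adjusted p = 0.375).

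The light effect on Clk4 was smaller at 4 h than at 0 h, with a difference of −0.37 ± 0.08 for 4 h minus 0 h (adjusted p = 0.00488). Clk4 and Clk3 were the 2 of 10 genes called in this test of the change, in which 1.9% of all genes were called. For Clk4 the call held without each of the 24 libraries in turn (0.00232 to 0.014) and was lost in batch 2 alone (adjusted p = 0.154; 0.000389 to 0.154 over the alternatives). Between 0 and 1 h the change of −0.22 ± 0.08 was not called (adjusted p = 0.217), nor was that of any of the 10 genes by edgeR or DESeq2, against 1.14% of all genes. In edgeR 4 of the 10 had an unadjusted p below 0.05, as had 1681 of all 18193 genes. BC049762, which overlaps Clk4 on the opposite strand and shares no exonic base with it, had at most 5 counts in any library. Gm25082, inside Clk4 on the same strand, had at most 48.

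Clk3 (chromosome 9, 57750624 to 57765860, minus strand) was also higher straight after light. It had 48.2, 50.1 and 50.4 CPM in lit and 42.1, 44.9 and 44.5 CPM in dark LiTEC cells. The WT values were 51.1, 56.6 and 55.2 CPM in lit and 37.9, 43.2 and 39.0 CPM in dark cells. Lit libraries lay above dark ones in both genotypes. The mean effect was 0.31 ± 0.05 (adjusted p = 5.07e-05), called under all 9 alternatives (2.42e-07 to 0.0251) and without each of the 12 libraries (0.000119 to 0.000544), and 0.31 in batch 1 and 0.30 in batch 2. The effect was called in WT (0.44 ± 0.07, adjusted p = 8.55e-05) and not in LiTEC (0.18 ± 0.07, adjusted p = 0.279). The test of the difference did not pass (−0.26 ± 0.09, 95% interval −0.46 to −0.06, adjusted p = 0.709).

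At 1 h Clk3 ran from 38.8 to 49.2 CPM in lit and 36.9 to 43.6 CPM in dark cells, and at 4 h from 45.9 to 53.6 CPM in lit and 45.5 to 54.1 CPM in dark cells, with overlapping ranges. By 1 h the mean light effect on Clk3 was 0.12 ± 0.05 and by 4 h 0.04 ± 0.05, neither called. The change from 0 to 4 h was −0.27 ± 0.07 (adjusted p = 0.0267). That call was lost without lit LiTEC replicate 1 at 0 or at 4 h, and without replicate 3 of dark LiTEC or dark WT cells at 0 h (adjusted p 0.0537 to 0.066). It was also lost in batch 2 alone, without a batch term and without an expression filter (0.00851 to 0.329 over the alternatives). Edc3, an mRNA decapping enhancer gene that shares 1284 exonic bases with Clk3 on the opposite strand, had a mean light effect of 0.13 ± 0.05 at 0 h (adjusted p = 0.214). Because the strand setting of the counting is not given in the sources used here, reads shared by Clk3 and Edc3 cannot be assigned.

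Clk1 (chromosome 1, 58410189 to 58424066, minus strand) was called in the mean light effect at 1 h and not at 0 h. At 1 h it had 166, 158 and 155 CPM in lit and 136, 146 and 140.2 CPM in dark LiTEC cells. In WT it had 169, 172 and 159.8 CPM in lit and 146, 134 and 135 CPM in dark cells. Every lit library at 1 h lay above every dark one. The mean effect was 0.23 ± 0.04 (adjusted p = 0.00188) and 0.24 in batch 1 and 0.22 in batch 2. It was called without each of the 12 libraries (0.0017 to 0.0122) and lost in batch 2 alone (adjusted p = 0.114; 4.47e-05 to 0.114 over the alternatives). Clk1, Clk4 and Srsf5 were the 3 of 10 genes called in the mean effect at 1 h, against 1.14% of all genes. At 0 h the mean effect on Clk1 was 0.13 ± 0.04 (adjusted p = 0.077), with 145 ± 4.07 CPM in lit and 128 ± 0.287 in dark LiTEC cells and 130.3 ± 12.4 in lit and 124 ± 7.53 in dark WT cells. The lit LiTEC libraries lay above the dark ones at 0 h too, and the WT ranges overlapped. In LiTEC the effect was 0.18 ± 0.06 at 0 h and at 1 h, and in WT it was 0.07 ± 0.06 at 0 h. The mean effect on Clk1 passed at 0 h with the replicate block (adjusted p = 0.0367; 0.0367 to 0.285 over the alternatives) and without dark WT replicate 1 (adjusted p = 0.046). The change of its effect from 0 to 1 h was not called (0.10 ± 0.06, adjusted p = 0.7), so a later peak than that of Clk4 was not shown.

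Within WT, Clk1 was called at 1 h (0.27 ± 0.06, adjusted p = 0.0277); in LiTEC it was 0.18 ± 0.06 (adjusted p = 0.382). Together with Clk4 and Srsf5 it made 3 of 10 genes called in WT at 1 h, against 0.286% of all genes, while none of the 10 was called in LiTEC by edgeR, against 0.115%. In LiTEC DESeq2 called 1 (Srsf5), and 3 had an unadjusted p below 0.05 in edgeR, as had 1138 of all 18193 genes. The WT call of Clk1 ended when any lit library, or dark replicate 2 or 3, was left out (adjusted p 0.061 to 0.23), and in batch 2 alone, without a batch term, without an expression filter and in a fit of the compared groups only (0.00362 to 0.284 over all 9). By 4 h the mean effect was −0.01 ± 0.04.

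Clk2 (chromosome 3, 89164795 to 89176921, plus strand) was called in WT at 0 h. It had 90.4, 102 and 81.3 CPM in lit and 69.4, 82.3 and 70.5 CPM in dark WT cells, so that the lowest lit library lay within the dark range. In LiTEC it had 73.1, 84.5 and 83.0 CPM in lit and 77.1, 96.6 and 75.1 CPM in dark cells, where dark replicate 2 was the highest of the 6. The effect was 0.30 ± 0.08 in WT (adjusted p = 0.0249) and −0.05 ± 0.08 in LiTEC (adjusted p = 0.888). The difference, −0.35 ± 0.11 (95% interval −0.58 to −0.12), did not pass when adjusted over all genes (adjusted p = 0.68). The WT call depended on lit replicates 1 and 2 and dark replicates 1 and 3, without any of which it was lost (adjusted p 0.116 to 0.22), in batch 2 alone, without a batch term and in a fit of the compared groups only (0.00268 to 0.455 over the alternatives). The mean effect at 0 h was 0.12 ± 0.06 (adjusted p = 0.239), and it passed without dark LiTEC replicate 2 (adjusted p = 0.0417; 0.0417 to 0.591 over the 12 libraries left out). At 1 h Clk2 ran from 73.3 to 80.7 CPM in lit and 70.6 to 74.5 CPM in dark cells, and at 4 h from 86.7 to 93.1 CPM in lit and 74.4 to 89.4 CPM in dark cells. Lit lay above dark in WT at 1 h and in LiTEC at 4 h. At 1 and 4 h the mean effect was 0.08 ± 0.06 and 0.14 ± 0.06, not called.

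**Figure D2:**
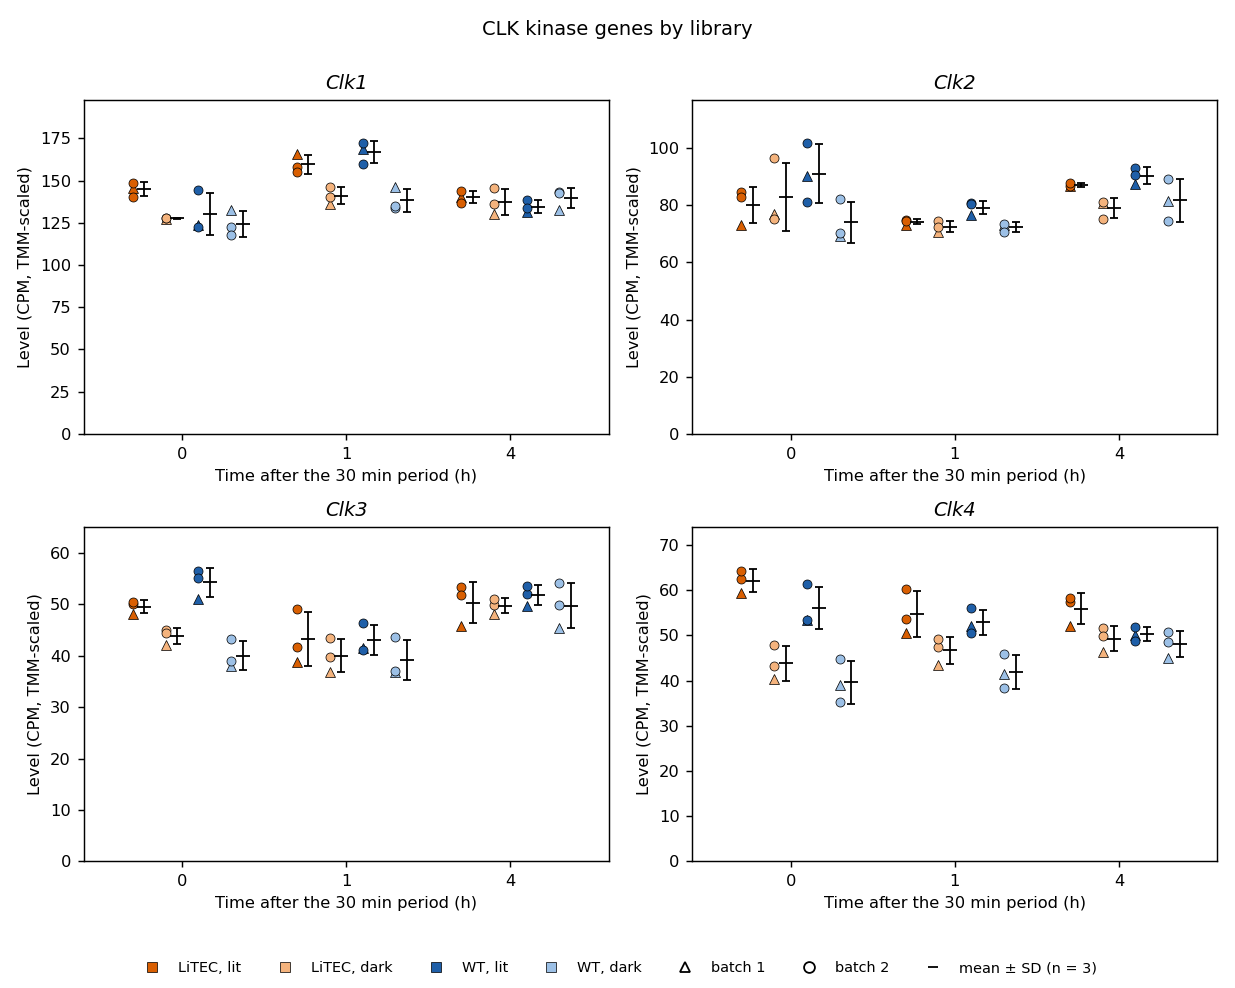
Levels of the 4 CLK kinase genes in CPM (y axes, from 0) at 0, 1 and 4 h (x axes) in each library; colours give genotype and light, triangles batch 1, circles batch 2, and bars the mean ± SD of 3 libraries. Clk4 at 0 h is at 53.3 to 64.3 CPM in lit and 35.2 to 47.9 CPM in dark cells, and Clk1 separates at 1 h, with 155 to 172 CPM in lit and 134 to 146 CPM in dark cells.

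Among the SR protein genes, Srsf5 (chromosome 12, 80945504 to 80950507, plus strand) was the 1 of 4 called with light. The calls were in the mean effect at 1 h, where 1.14% of all genes were called, and in WT at 1 h, where 0.286% were. Levels of Srsf5 are given first. At 1 h it had 274, 281 and 271 CPM in lit and 314, 342 and 335 CPM in dark LiTEC cells. The WT values were 279.5, 298 and 290.3 CPM in lit and 354, 372 and 359.6 CPM in dark cells. Every lit library lay below every dark one at this time. The mean effect was −0.29 ± 0.04 (adjusted p = 3.71e-05), called under all 9 alternatives (2e-09 to 0.0111) and without each of the 12 libraries (6.34e-05 to 0.000351), and −0.27 in batch 1 and −0.30 in batch 2. It was −0.32 ± 0.06 in WT (adjusted p = 0.00366) and −0.26 ± 0.06 in LiTEC (adjusted p = 0.0531). The LiTEC effect passed under 5 of the 9 alternatives, the replicate block included (adjusted p = 0.0119, and 0.0063 to 0.603 over the alternatives). The WT call was lost without lit replicate 1 (adjusted p = 0.0625) and in batch 2 alone (adjusted p = 0.27; 3.5e-05 to 0.27 over the alternatives). The difference between genotypes was 0.06 ± 0.08 (95% interval −0.11 to 0.23).

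At 0 h Srsf5 averaged 281 ± 17.0 CPM in lit and 304 ± 11.4 CPM in dark LiTEC cells, and 308 ± 22.3 CPM in lit and 342 ± 10.7 CPM in dark WT cells. The mean effect of −0.13 ± 0.04 was just outside the threshold (adjusted p = 0.0548; 0.0246 to 0.177 over the alternatives). It passed under 5 of the 9 alternatives, the replicate block included (adjusted p = 0.0246). Without lit LiTEC replicate 1 it was −0.18 (adjusted p = 0.0085). It passed as well without lit WT replicate 2 (adjusted p = 0.0218) or dark WT replicate 3 (adjusted p = 0.0469). At 4 h the mean effect was −0.03 ± 0.04, with 356 ± 19.2 CPM in lit and 344 ± 12 CPM in dark LiTEC cells. In WT at 4 h Srsf5 ran from 324 to 357 CPM in lit and 341 to 398 CPM in dark cells, the highest in the library that stood apart. The effect at 4 h was 0.05 ± 0.06 in LiTEC and −0.11 ± 0.06 in WT, neither called. The change of the mean effect from 0 to 1 h was −0.16 ± 0.06 (adjusted p = 0.243).

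Srsf2, Srsf3 and Srsf7 were not called in any light comparison. Srsf2 (chromosome 11, 116849901 to 116853094, minus strand) had mean light effects of −0.02 ± 0.07, −0.05 ± 0.07 and −0.06 ± 0.07 at 0, 1 and 4 h. At 0 h it had 570.0, 463 and 496 CPM in lit and 483, 428 and 517 CPM in dark LiTEC cells, overlapping ranges, and 455, 400.1 and 485 CPM in lit and 495, 475 and 499.8 CPM in dark WT cells. Srsf3 (chromosome 17, 29032628 to 29043373, plus strand), an adaptor of mRNA export, had −0.04 ± 0.06, −0.05 ± 0.06 and −0.14 ± 0.06. In WT at 4 h Srsf3 had an effect of −0.22 ± 0.08, with 471, 438 and 469 CPM in lit and 475, 476 and 656 CPM in dark cells, the highest of which is the library that stood apart. Without that library the mean effect at 4 h was −0.05, and the WT effect was −0.04 (adjusted p = 0.989). With all libraries the WT effect at 4 h passed without an expression filter (adjusted p = 0.0378; 0.0378 to 0.96 over the alternatives). Lit Srsf3 libraries also lay below the dark ones in WT at 0 h (443 to 461 against 476 to 524 CPM). The same held in LiTEC at 1 h (453 to 476 against 488 to 491 CPM), and the other ranges overlapped. Srsf7 (chromosome 17, 80200080 to 80207307, minus strand), like Srsf3 a shuttling export adaptor, had mean light effects of −0.02 ± 0.05, −0.02 ± 0.05 and −0.03 ± 0.05 at 0, 1 and 4 h. At 0 h it had 238, 199.9 and 215 CPM in lit and 211, 195 and 217 CPM in dark LiTEC cells, overlapping ranges, and 202, 185 and 198 CPM in lit and 219, 208 and 207 CPM in dark WT cells, all lit WT libraries below the dark ones. Mfsd11, on the opposite strand and sharing 288 exonic bases with Srsf2, rose in WT at 0 h by 0.67 ± 0.14 (adjusted p = 0.00395). It was named after its values were seen. Mettl23, also on the opposite strand, shares 460 exonic bases with Srsf2 and was not called in WT at 0 h (0.42 ± 0.16, adjusted p = 0.175). The strand setting of the counting is not given in the sources used here, so reads that Srsf2 shares with Mfsd11 or Mettl23 cannot be assigned.

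**Figure D3:**
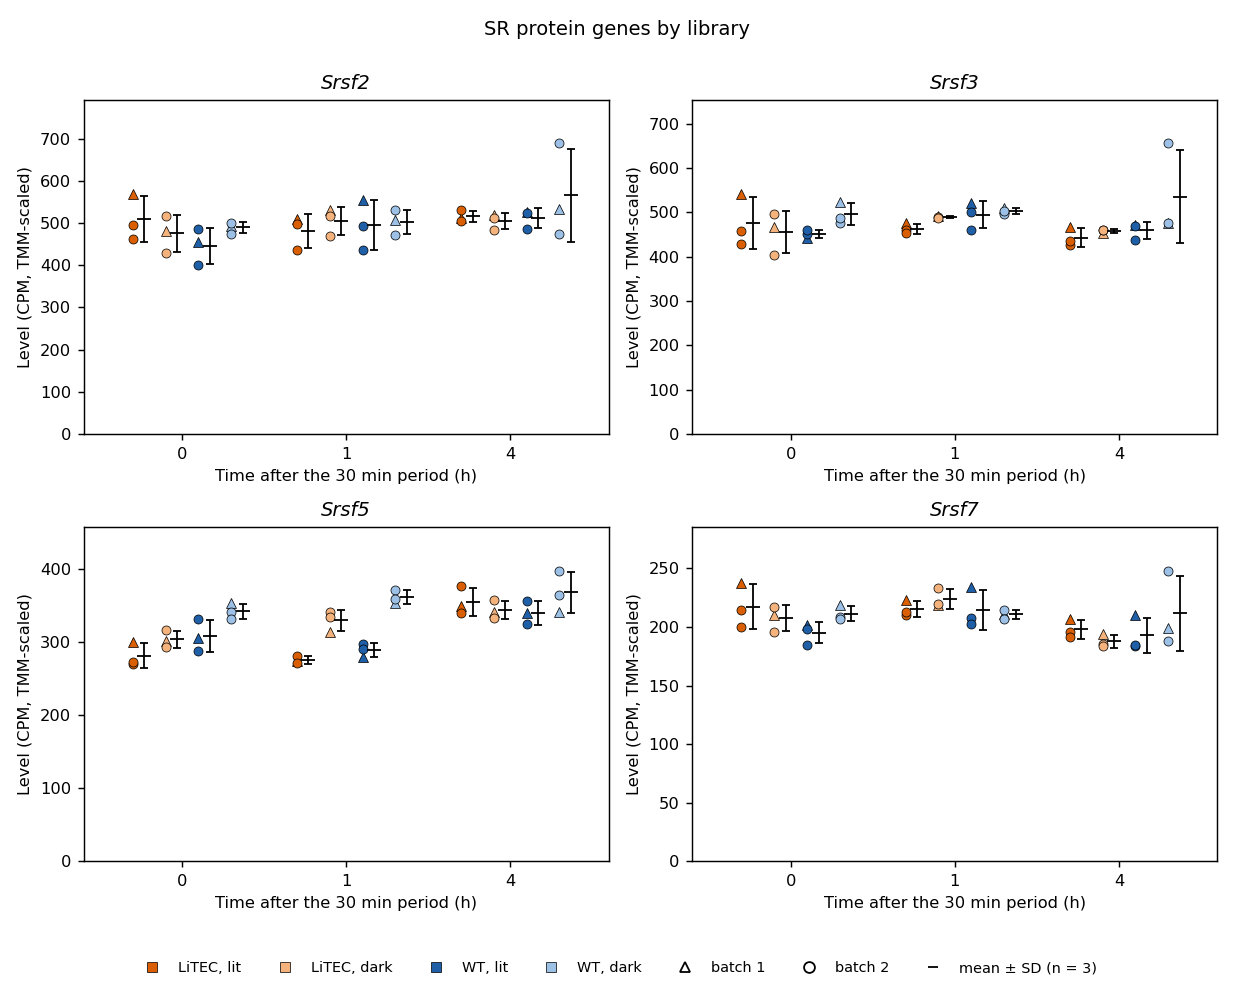
Levels of the 4 SR protein genes in CPM (y axes, from 0) at 0, 1 and 4 h (x axes) in each library; colours give genotype and light, triangles batch 1, circles batch 2, and bars the mean ± SD of 3 libraries. Srsf5 at 1 h is at 271 to 298 CPM in lit and 314 to 372 CPM in dark cells; the dark WT library at 4 h that stands above the rest is replicate 3.

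No light effect on any of the 10 genes differed between LiTEC and WT by the test of the difference in edgeR, at 0 h (0.022% of all genes called), 1 h or 4 h (0% each). All 30 adjusted p-values were at least 0.68. Unadjusted, Clk2 and Clk3 at 0 h and Srsf7 at 4 h had a p below 0.05 (0.00322, 0.00997 and 0.0374), and DESeq2 called none of the 30. Over all 18193 genes, 1129 had such an unadjusted p at 0 h, 378 at 1 h and 657 at 4 h. The Srsf7 difference, 0.21 ± 0.10, was 0.06 without the dark WT library that stood apart. At 4 h none of the 10 was called in the mean light effect, against 0.275% of all genes, nor in LiTEC (0.011%) or WT (0%), by edgeR or DESeq2. At an unadjusted p below 0.05, edgeR counted 4 of the 10 in the mean at 4 h, 1 in LiTEC and 2 in WT. Over all 18193 genes the unadjusted counts were 1948 for the mean, 1155 for LiTEC and 1484 for WT.

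**Figure D4:**
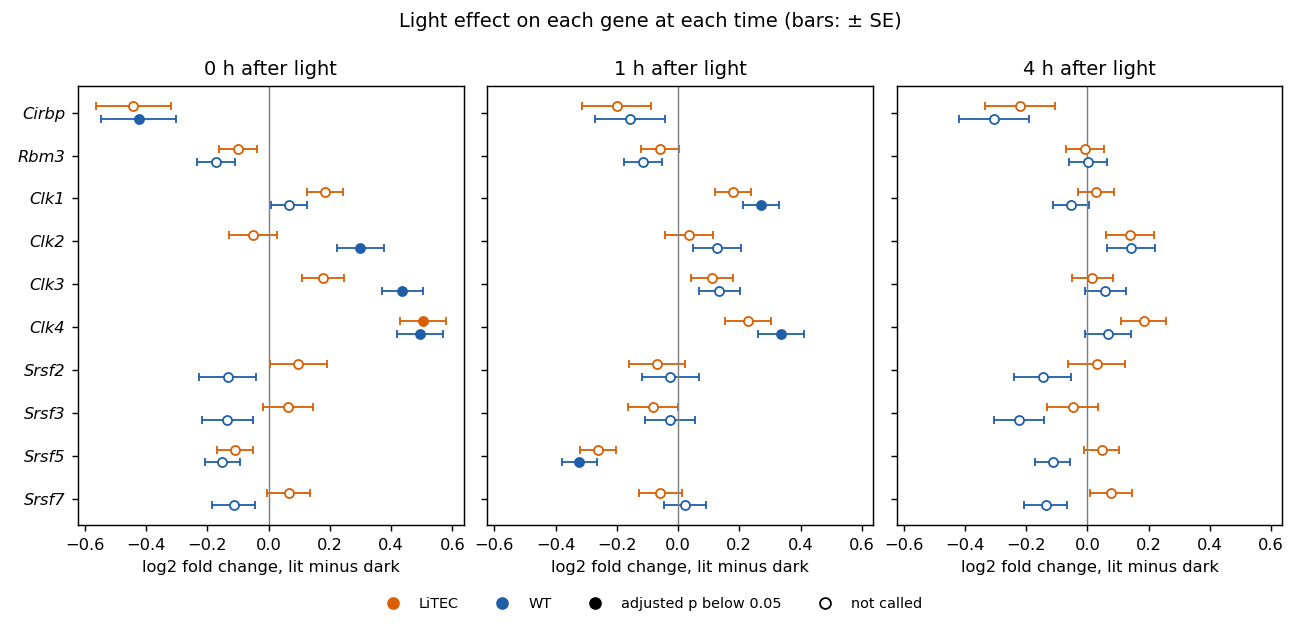
Log2 fold change of lit minus dark cells (x axis) for each gene (rows) at 0, 1 and 4 h, in LiTEC and WT; points are the fitted values, bars ± SE, and filled points have an adjusted p below 0.05. At 0 h Cirbp lies near −0.44 and Clk4 near 0.50 in both genotypes, and at 1 h Srsf5 is the gene furthest below 0.

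Several of the 10 genes also changed with time in cultures that had no light. Cirbp had 24.9, 25.3 and 20.6 CPM in dark LiTEC cells at 0 h, 40.1, 32.6 and 30.1 at 1 h and 38.3, 30.3 and 29.7 at 4 h. In dark WT cells it had 21.5, 22.8 and 20.4 CPM at 0 h, 32.8, 27.9 and 28.2 at 1 h and 31.9, 29.0 and 40.1 at 4 h. Every dark library at 1 or 4 h lay above every dark library at 0 h. The mean change over the genotypes was 0.49 ± 0.08 for 1 h minus 0 h (adjusted p = 0.00068) and 0.55 ± 0.08 for 4 h minus 0 h (adjusted p = 2.41e-05), both against the same 0 h libraries, which also enter the light effect at 0 h. These rises were larger in size than the fall with light at 0 h, and that comparison of sizes was not tested. Within batches the 4 h change was 0.59 in batch 1 and 0.52 in batch 2, and without the dark WT library that stood apart it was 0.46 (adjusted p = 6.84e-05). The 4 h call held under all 9 alternatives (1.31e-11 to 0.00417) and the 1 h call was lost in batch 2 alone (adjusted p = 0.0915; 2.01e-08 to 0.0915 over the alternatives).

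Cirbp was the 1 of 10 genes called for 1 h, against 1.31% of all genes. For 4 h 5 were called, all higher, against 15.5% of all genes in either direction with 7.82% higher and 7.65% lower; the median over the 10 was 0.14, against −0.01 over all genes. The heat shock genes Hspa1b (1.08 ± 0.30) and Dnajb1 (0.19 ± 0.07) were higher at 4 h in the same dark libraries, while Hspa1a (0.58 ± 0.53) and Hsph1 (−0.24 ± 0.09, adjusted p = 0.0601) were not called. The Hspa1b change was 1.99 in batch 1 and 0.31 in batch 2. The part of these genes in the changes of the 10 genes was not tested. Besides Cirbp the called genes were Clk3 (0.25 ± 0.05, adjusted p = 0.000522), Clk4 (0.22 ± 0.05, adjusted p = 0.00464), Srsf5 (0.14 ± 0.04, adjusted p = 0.0155) and Clk1 (0.14 ± 0.04, adjusted p = 0.0231). Clk3 averaged 49.8 ± 1.44 CPM at 4 h and 43.9 ± 1.54 CPM at 0 h in dark LiTEC cells, and 49.8 ± 4.31 CPM at 4 h and 40.1 ± 2.80 CPM at 0 h in dark WT cells. Rbm3 was −0.00 ± 0.04, Clk2 0.04 ± 0.06 and Srsf3 0.06 ± 0.06, not called.

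The call of Clk1 over time was lost without dark LiTEC replicate 2 at 4 h or dark WT replicate 2 or 3 at 0 h (adjusted p 0.0559 to 0.0787), without an expression filter and in a fit of the dark groups compared (0.00918 to 0.0695 over the alternatives). That of Clk4 was lost in batch 2 alone (adjusted p = 0.0797; 0.00167 to 0.0797 over the alternatives) and that of Srsf5 in the fit of the compared groups (adjusted p = 0.0526; 0.00558 to 0.0526). Srsf2, at 0.15 ± 0.07 (adjusted p = 0.127), passed under 2 of the 9 alternatives, the replicate block included (adjusted p = 0.0194, and 0.00517 to 0.3 over the 9). It passed as well without dark WT replicate 2 at 4 h (adjusted p = 0.029). Without the dark WT library that stood apart Srsf2 was 0.06 (adjusted p = 0.511). Clk1 at 1 h, 0.15 ± 0.04 (adjusted p = 0.0684), passed under 3 of the 9 alternatives, the block included (adjusted p = 0.024, and 0.024 to 0.281 over the 9). Srsf7 was −0.07 ± 0.05 with the dark WT library that stood apart (adjusted p = 0.354) and −0.14 without it (adjusted p = 0.0119). What changed in the dark cultures between the times is not given in the sources used here.

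**Figure D5:**
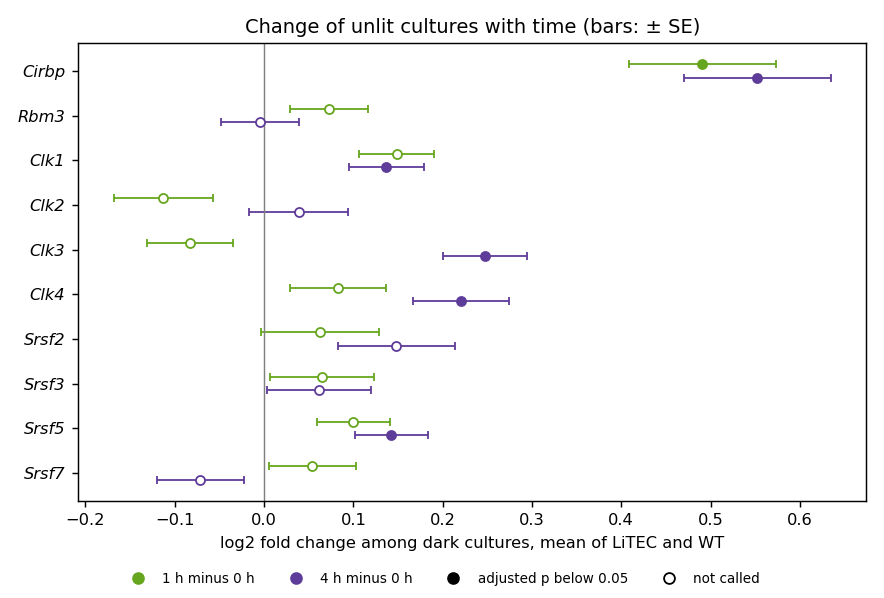
Log2 fold change among dark cultures (x axis) for 1 h and 4 h, each minus 0 h, as the mean of LiTEC and WT, for each gene (rows); bars are ± SE and filled points have an adjusted p below 0.05. Cirbp lies furthest to the right at both times, at 0.49 and 0.55, and Rbm3 lies near 0.

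Between dark LiTEC and dark WT cells, 3 of the 10 genes differed, against 47.6% of all genes called. Srsf5 was lower in LiTEC (−0.13 ± 0.03, adjusted p = 0.00118), with 294 to 357 CPM in the 9 LiTEC libraries and 332 to 398 CPM in the 9 WT libraries, and this call held without each of the 18 libraries (0.000791 to 0.00681) and under the 9 alternatives (0.000341 to 0.0162). Srsf3 was lower as well, at −0.13 ± 0.05 (adjusted p = 0.0242). Without the WT library that stood apart it was −0.06 (adjusted p = 0.157), and the call was also lost without 4 other libraries: LiTEC replicate 2 or WT replicate 1 at 0 h, LiTEC replicate 1 at 1 h or LiTEC replicate 1 at 4 h (all 5: adjusted p 0.0519 to 0.157). Batch 2 alone, a mean of at least 5 CPM and a fit of the dark groups only ended it too (0.000388 to 0.0653 over the alternatives). Clk4 was higher by 0.11 ± 0.04 (adjusted p = 0.034). That call was lost without any of 6 libraries, namely LiTEC replicate 2 or WT replicate 3 at 0 h, WT replicate 2 at 1 h, and LiTEC replicate 2 or 3 or WT replicate 2 at 4 h (adjusted p 0.051 to 0.117). It was also lost in batch 2 alone, without a batch term, without an expression filter and when only the dark groups were fitted (0.0083 to 0.116 over the alternatives).

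Cirbp differed by 0.09 ± 0.07 between dark LiTEC and WT cells (adjusted p = 0.258) and by 0.16 without the WT library that stood apart (adjusted p = 0.0212; 0.139 to 0.926 over the alternatives with all libraries). For Rbm3 the difference was 0.08 ± 0.04 (adjusted p = 0.0663). It passed under 3 of the 9 alternatives, the replicate block included (adjusted p = 0.0476, and 0.0124 to 0.177 over the alternatives). It also passed without LiTEC replicate 1 at 1 or 4 h or WT replicate 1 at 0 or 4 h (adjusted p 0.0156 to 0.0392), and it was −0.03 in batch 1 and 0.14 in batch 2.

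Lists of other genes of splicing control also held called genes, set here beside the 5.37% of all genes called in the mean light effect at 0 h and 1.14% at 1 h. Of 9 other SR protein genes, 1 was higher and 1 lower in the mean light effect at 0 h (median 0.04, against 0.00 over all genes). The higher was Tra2a, a splicing activator related to SR proteins (0.18 ± 0.04, adjusted p = 0.0127), and the lower Srsf10 (−0.16 ± 0.03, adjusted p = 0.00134), a splicing repressor that heat shock is known to dephosphorylate. Of the other kinases of SR proteins and the DYRK family, 7 of 9 were tested, and 2 were higher at 0 h: Dyrk1b (0.55 ± 0.08, adjusted p = 2.68e-05) and the pre-mRNA processing kinase gene Prpf4b (0.15 ± 0.04, adjusted p = 0.0136). The kinases of the SRPK family, Srpk1 and Srpk2, were at −0.02 ± 0.03 and −0.06 ± 0.06, not called. None of the 7 tested cold shock domain genes of 8 was called by edgeR in the mean light effect at any time, and 0, 1 and 2 had an unadjusted p below 0.05 at 0, 1 and 4 h. Of all 18193 genes, 2935, 2030 and 1948 had such a p at these times. Of 17 nuclear speckle and intron-retention genes, 2 were lower at 0 h, Rbm39 (−0.27 ± 0.04, adjusted p = 6.48e-05) and Luc7l2 (−0.22 ± 0.04, adjusted p = 0.000665), splicing factor genes. At 1 h 2 were higher, Rsrp1 (0.51 ± 0.04, adjusted p = 2.36e-10) and Luc7l (0.15 ± 0.04, adjusted p = 0.0239).

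Within a genotype at 0 h, the lists held in LiTEC Luc7l2 (−0.31 ± 0.06) and Rbm39 (−0.29 ± 0.06), both lower, and in WT Srsf10 (−0.22 ± 0.04) and Rbm39 (−0.25 ± 0.06), lower, and Tra2a (0.23 ± 0.06) and Dyrk1b (0.74 ± 0.11), higher. These stand beside 0.934% of all genes called in LiTEC and 2.86% in WT. In dark cultures at 4 h against 0 h, where 7.82% of all genes were higher and 7.65% lower, 1 of the 9 other SR protein genes was higher (Srsf6, 0.17 ± 0.05) and 3 were lower (Srsf10, −0.21 ± 0.03; Tra2b, −0.16 ± 0.03; Srsf1, −0.14 ± 0.03). Of the cold shock domain genes, Ybx1 was lower (−0.18 ± 0.04), and of the speckle genes Rsrp1 (0.52 ± 0.04) and Acin1 (0.10 ± 0.03) were higher. Rsrp1 was lower in dark cultures at 1 h against 0 h (−0.41 ± 0.04, adjusted p = 1.3e-07), the 1 called gene of these lists there, against 1.31% of all genes.

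Between dark LiTEC and WT cells, 5 of the 7 tested cold shock domain genes were lower and 1 higher, against 23.7% of all genes lower and 23.9% higher. Of these, Ybx3 (−0.26 ± 0.03) and the microRNA-binding Lin28b (−0.28 ± 0.05) and Lin28a (−0.42 ± 0.08) had the smallest adjusted p. Of the 7 tested kinases 4 were lower (Dyrk3, −0.64 ± 0.05; Srpk1, −0.17 ± 0.03; Prpf4b, −0.12 ± 0.03; Dyrk2, −0.12 ± 0.05). Among the other SR protein genes 3 were lower (Srsf10, −0.20 ± 0.03; Srsf6, −0.20 ± 0.04; Srsf1, −0.08 ± 0.03) and 1 higher (Srsf12, 0.68 ± 0.21), and of the 17 speckle genes 8 were lower and 2 higher, with U2af1 (−0.16 ± 0.03), Rbm25 (−0.17 ± 0.04) and U2af2 (−0.11 ± 0.03) lower and Rsrp1 (0.19 ± 0.03) higher.

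As a description of likeness, Pearson's r was taken over the 12 group means of batch-adjusted log2 CPM, which share libraries' scaling and batch. The genes most like Cirbp, out of 10527 others that averaged 5 CPM or more, were Apex2 (r = 0.96), Lrrc31 (r = 0.93) and Pcif1 (r = 0.93). For Rbm3 they were Ogfrl1 (r = 0.92), Dazap2 (r = 0.92) and Slc17a5 (r = 0.91), for Clk1 1810013L24Rik (r = 0.86), Arf2 (r = 0.84) and Slc35e2 (r = 0.82), and for Clk4 Snx16 (r = 0.90), Zfand2a (r = 0.90) and Dnajb1 (r = 0.89). Zfand2a is a stress-inducible gene and Dnajb1 the heat shock cochaperone gene given above. Among the 10 genes the closest pair was Clk2 and Clk3 (r = 0.88), followed by Cirbp and Rbm3 (r = 0.66) and Clk3 and Clk4 (r = 0.65), and the most opposed were Clk3 and Srsf7 (r = −0.70). With 12 means and many genes, high values of r are found among unrelated genes.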

How the data were processed

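RNA of 36 libraries of mouse embryonic stem cells was extracted with TRIzol and sequenced from a stranded poly(A) mRNA kit, per the labels' protocols. The authors deposited raw counts per gene, whole numbers with no normalization. The submitters' processing notes name mm10 (GRCm38) as build, with featureCounts and FastQC. Not given in the sources used here are the aligner, the strand setting and how reads with several matches were handled. Groups, replicate numbers and batches come from the sample titles: replicate 1 of each group is batch 1 and replicates 2 and 3 are batch 2. Since no label says that replicates came from separate cultures, the p-values reflect only how these libraries vary, which may be technical.

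With edgeR 4.0.16 (limma 3.58.1, R 4.3.3), genes were kept by filterByExpr at a minimum count of 10 (18193 of 54842, with at least 99.8792% of each library's counts), scaled by TMM and fitted over all 36 libraries with a mean per group and a batch term (23 residual degrees of freedom). The 17 contrasts were tested with glmQLFTest, with Benjamini-Hochberg adjustment across the 18193 genes, and called at an adjusted p below 0.05; the procedure was tested on simulated data. The SE is the size of the log2 fold change divided by the square root of F, and 95% intervals use its t quantile. Within-batch values are differences of log2(CPM + 0.5), with 1 library a group in batch 1 and no test. The 9 alternatives were a replicate block, DESeq2 1.42.0, a filter at a mean of 5 CPM in place of filterByExpr, no expression filter, RLE size factors, no batch term, batch 2 alone, the compared groups only, and leaving out the ribosomal RNA loci Gm26917 and Gm42418. Each library was also left out in turn.

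Same-numbered lit and dark libraries of a genotype and time deviated together from their group means. Over tested genes, r was 0.231 to 0.511 in 18 of 18 pairs. The number also marks the batch in the titles, and each group mean spans both batches. A batch difference alone can therefore give such values of r, and libraries of different numbers were not compared. Whether the numbers pair libraries beyond batch was thus not shown. Coordinates are 1-based GRCm38 positions from GENCODE M21, matched for all 10 genes by the identifier without its version. For Srsf7, whose version differed, 1 of 8 transcripts was in the series' name map. The 10 genes and the lists were chosen with earlier results of these data known. Named besides the 10 genes were at most 4 called members of each list and comparison by smallest adjusted p, the heat shock genes Hspa1a, Hspa1b, Dnajb1 and Hsph1, and the 3 genes most like each of Cirbp, Rbm3, Clk1 and Clk4. Marker genes, genes overlapping the 10 and, outside the rule, the uncalled kinases Srpk1 and Srpk2 at 0 h are named as well. A list gene that this rule also named is not reported here.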

Additional observations from a re-analysis of the deposited data

Results flagged for a closer look

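Clk4 and Clk3 drew attention because their light effect differed between times by the test of the difference itself. For Clk4 the effect at 4 h minus that at 0 h was −0.37 on the log2 scale (0.13 ± 0.05 at 4 h and 0.50 ± 0.05 at 0 h, mean of LiTEC and WT; edgeR adjusted p = 0.00488). For Clk3 it was −0.27 (0.04 ± 0.05 at 4 h and 0.31 ± 0.05 at 0 h; adjusted p = 0.0267). In both genes dark levels at 4 h were also above those at 0 h (0.22 ± 0.05 and 0.25 ± 0.05). The dark libraries of 0 and 4 h enter both calculations. The change of the light effect is that of lit cells less that of dark cells. Lit Clk3 libraries ran from 48.2 to 50.4 CPM at 0 h and 45.9 to 53.5 CPM at 4 h in LiTEC. In WT they ran from 51.1 to 56.6 and 49.8 to 53.6 CPM, so both ranges overlapped between times. For Clk4 they ran from 59.4 to 64.3 and 52.1 to 58.3 CPM in LiTEC. The WT ranges were 53.3 to 61.3 and 48.8 to 51.8 CPM, so lit Clk4 was lower at 4 h without overlap. The change of lit cells alone was not tested. The Clk3 call was lost without any of 4 single libraries (adjusted p 0.0537 to 0.066).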

How the results depend on the processing

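Of 3510 recomputed fold changes of single genes, 3391 kept their side of the threshold, 74 lost a call, 45 gained one, and no change that was called, here or there, turned its direction. The pairing by replicate number (the replicate block) gained calls and lost none: the number of the 10 genes called was 2 in place of 1 for light in LiTEC at 0 h, 1 in place of 0 for light in LiTEC at 1 h, 6 in place of 3 for the mean light effect at 0 h, 2 in place of 1 for dark cultures at 1 h, 6 in place of 5 for dark cultures at 4 h and 4 in place of 3 for dark LiTEC against dark WT cells. Over all genes the block gave more calls as well. For light in LiTEC it gave 290 in place of 170 at 0 h and 60 in place of 21 at 1 h. It gave 1332 in place of 977 for the mean light effect at 0 h. In dark cultures it gave 526 in place of 239 at 1 h and 3835 in place of 2814 at 4 h. Between dark LiTEC and WT cells it gave 9303 in place of 8655. DESeq2 gave 2, 1, 5 and 2 of the 10 genes for the first 4 of these comparisons, and a mean of at least 5 CPM gave 1 for LiTEC at 1 h, 5 for the mean at 0 h and 2 for dark cultures at 1 h. Batch 2 alone gave 0 for LiTEC at 0 h, 2 in place of 4 for WT at 0 h, 0 in place of 3 for WT at 1 h, 1 in place of 3 for the mean at 1 h, 0 in place of 2 for the change of the effect from 0 to 4 h and 0 in place of 1 for dark cultures at 1 h; it has fewer libraries. No batch term gave 2 for WT at 0 h, 1 for WT at 1 h and 1 for the change of the effect to 4 h. The compared groups only gave 1 for LiTEC at 1 h, 2 for WT at 0 h, 1 for WT at 1 h, 3 in place of 5 for dark cultures at 4 h and 1 in place of 3 for dark LiTEC against dark WT cells. No expression filter gave 2 for LiTEC at 0 h, 1 for LiTEC at 1 h, 1 for WT at 1 h, 1 in place of 0 for WT at 4 h and for the mean at 4 h, and 1 for the change of the effect to 4 h. Without the ribosomal RNA loci the mean at 0 h had 5. Smaller shifts were 3 in place of 4 for WT at 0 h (RLE size factors, a mean of at least 5 CPM, no ribosomal RNA loci), 4 in place of 3 for the mean at 0 h (RLE), 4 in place of 5 for dark cultures at 4 h (batch 2 alone), and 2 in place of 3 for dark LiTEC against dark WT cells (batch 2 alone, no batch term, no expression filter). Beyond the batch term, the replicate block adds only a difference of replicates 2 and 3 that all groups share. The cause of these shifts was not tested, and a pairing by replicate number beyond batch was not shown.

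Leaving out 1 library gave 1 to 2 calls for LiTEC at 0 h, 2 to 3 for WT at 0 h, 0 to 2 for WT at 1 h, 3 to 5 for the mean at 0 h, 1 to 2 for the change of the effect to 4 h, 4 to 6 for dark cultures at 4 h and 1 to 4 for LiTEC against WT cells. It gave 3 to 3 for the mean at 1 h, 1 to 1 for dark cultures at 1 h and 0 to 0 elsewhere. Over all genes these fits gave 38 to 126 in place of 170 for LiTEC at 0 h. In WT they gave 230 to 430 in place of 520 at 0 h and 15 to 41 in place of 52 at 1 h. The mean had 736 to 956 in place of 977 at 0 h, and the change to 4 h 217 to 383 in place of 345. Dark cultures at 4 h had 2189 to 2851 in place of 2814, and LiTEC against WT cells 8177 to 8603 in place of 8655.

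Counts over all genes moved more. In brackets is the range over the 9 alternatives: 170 (5 to 290) for LiTEC at 0 h, 520 (141 to 870) for WT at 0 h, 21 (7 to 60) and 52 (11 to 111) at 1 h, 2 (0 to 36) and 0 (0 to 113) at 4 h, 977 (295 to 1332), 208 (39 to 460) and 50 (3 to 197) for the mean effect at 0, 1 and 4 h, 4 (0 to 31), 0 (0 to 4) and 0 (0 to 16) for the genotype difference, 208 (63 to 320) and 345 (62 to 634) for the change of the effect to 1 and 4 h, 239 (41 to 526) and 2814 (1210 to 3835) for dark cultures at 1 and 4 h, and 8655 (6119 to 9303) for LiTEC against WT cells. Cirbp, with at most 659 counts a library, had the widest errors of the 10 genes.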
